A study of Homo sapiens with 12 samples.

Results

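The mRNA of 10 genes used to follow epithelial-mesenchymal transition (EMT) was measured in human A375 melanoma cells that expressed mutants of YAP. They were the cadherins CDH1 and CDH2, the mesenchymal proteins VIM and FN1, and the transcription factors SNAI1, SNAI2, TWIST1, TWIST2, ZEB1 and ZEB2. The genes were picked by name from a deposited table of 31585 loci in which each of the 10 has 1 entry. The rule that picks them uses names and no measured value, but the set was proposed with earlier results of these data known. Of the 10, 9 passed the filter for testing, an FPKM (fragments mapped per length of transcript, scaled to the depth of the library) of at least 1 in at least 3 libraries. CDH1 did not pass. The entry that holds ZEB2 also lists ZEB2-AS1 and the transcript AK124806, so its value belongs to that joint locus.

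In EMT, cells lose the adhesion and polarity of an epithelium and take on a migratory, matrix-producing form. The cadherin switch, in which E-cadherin (CDH1) gives way to N-cadherin (CDH2), is one of its usual markers. Factors of the SNAI, TWIST and ZEB families drive it, and SNAI and ZEB proteins repress CDH1 by binding E-box sequences in its promoter. Melanocytes come from the neural crest and are not epithelial cells. In melanoma the balance of these factors is known to matter, with ZEB2 and SNAI2 kept in differentiated cells and ZEB1 and TWIST1 linked to dedifferentiation and invasion.

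YAP is a coactivator that works through TEAD transcription factors and that LATS kinases restrain by phosphorylation. The series asks how forms of YAP that LATS controls less, or that cannot use TEADs, alter gene expression in melanoma cells. All 12 libraries came from A375, transduced with a retrovirus, selected with hygromycin and lysed 24 h after plating in growth medium with fetal bovine serum. The study's methods give a longer time in culture, so the time is uncertain.

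The Control cells carried the empty vector MSCV-IRES-Hygro, and 3 libraries were made for it and for each YAP construct. YAPS127A cells expressed YAP with the S127A change at a LATS site. YAPS127A,S94A cells expressed the same protein with S94A, which prevents TEAD binding. YAP2SA cells expressed YAP with S127A and S381A. One description of the last construct also lists S94A, while the titles of its samples do not. No more than 1 stably transduced population of cells per construct is described, and the 3 biological replicates are taken as cultures of it. On that reading the p values measure the spread between such cultures.

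The vectors encode YAP1, and its FPKM checks the labels. It was between 130 and 187 in all 9 libraries of the YAP constructs, and in the Control libraries it was 34.1, 33.0 and 172. The library labelled Control replicate 3 thus had YAP1 at the level of the YAP-expressing cells, and results that rest on it are given with and without it. Without it, YAP1 was higher than in Control by 2.01 (YAP2SA), 2.29 (YAPS127A) and 2.16 (YAPS127A,S94A) on the log2(FPKM + 1) scale. With it they were 1.23 (adjusted p = 0.0662), 1.51 (adjusted p = 0.109) and 1.39 (adjusted p = 0.919), by limma. The sum of FPKM over all loci was between 790865 and 901558 in a library, and between 20161 and 20656 loci were above 0. The number of reads per library is not known from these values, so no counting error could be attached to them.

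All differences below are of mean log2(FPKM + 1) between groups of 3 libraries, each with its standard error (SE) or 95% interval. The test was limma over all 15055 loci that passed the filter, two-sided, with Benjamini-Hochberg adjustment, and a gene is said to have risen or fallen where its adjusted p was under 0.05. Fold values are ratios of mean FPKM. Means carry the SD over 3 libraries. FPKM is a value per length of transcript, which allows levels of different genes to be set side by side. These are bulk libraries, in which fewer cells that express a gene and less RNA per cell cannot be told apart.

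In YAP2SA cells 7 of the 9 tested genes differed from Control. With no more than 1 population per construct described, an effect of YAP2SA and other differences between the populations cannot be told apart. TWIST2 rose 2.74-fold. SNAI2, SNAI1, FN1, TWIST1, VIM and CDH2 fell, by 3.88-fold, 2.52-fold, 2.07-fold, 1.92-fold, 1.26-fold and 1.21-fold. ZEB1 and ZEB2 did not pass the test. Of all loci tested, 42.3% passed in this comparison, so that a share of 7 in 9 is read against a background in which many loci moved. The 1 gene that rose stands beside a background of 22.9% of loci called higher, and the 6 that fell beside one of 19.5% called lower. An adjusted p under 0.05 together with a ratio over 2 was met by 4 of the 9, TWIST2, SNAI1, SNAI2 and FN1, and by 15.5% of all loci. The 3 YAP2SA and 3 Control libraries did not overlap in 7 of the 9 genes, and in 52.8% of all loci. For single genes below, YAP2SA libraries are also set against all others, and the share of loci apart in that way was not counted. Without the library labelled Control replicate 3, 6 of the 9 were called, with 37.2% of 14982 loci called, and the gene lost was FN1. The other 6 had adjusted p values of 0.012 or less without that library.

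**Figure D1:**
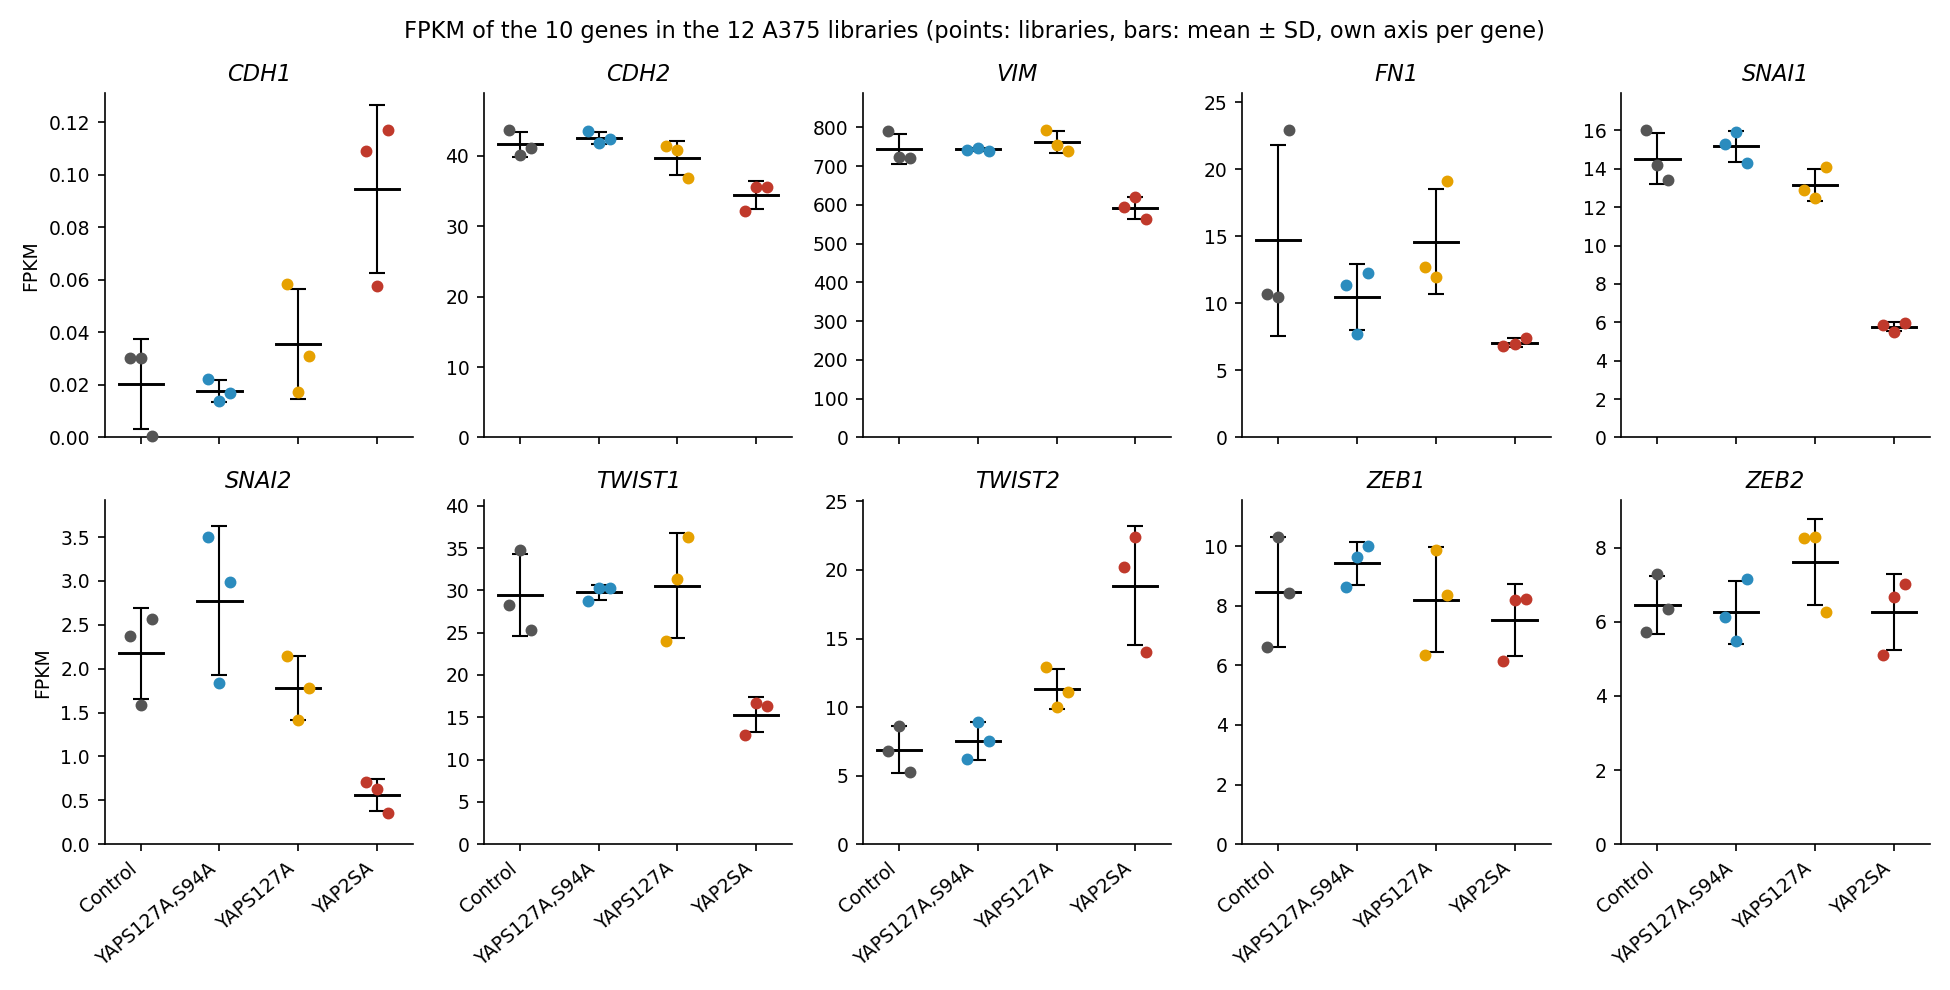
FPKM (vertical axes, linear, each from 0) of the 10 genes in Control, YAPS127A,S94A, YAPS127A and YAP2SA cells. Points are the 3 libraries of a group, and bars give the mean and SD. In CDH2, VIM, FN1, SNAI1, SNAI2 and TWIST1 the 3 YAP2SA libraries lie below all 9 others, in TWIST2 they lie above all 9, and CDH1 stays at or under 0.117 FPKM in every library. Between YAP2SA and Control alone, 52.8% of all tested loci did not overlap. The share of loci with YAP2SA apart from all 9 others was not counted.

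The cadherins were at opposite ends of the range of expression. CDH1 encodes E-cadherin, the calcium-dependent adhesion protein of epithelial junctions, on chromosome 16 (GRCh37, 68771195 to 68869440, plus strand). Its FPKM was 0.0303, 0.0303 and 0.000693 in Control, 0.0224, 0.0140 and 0.0168 in YAPS127A,S94A, 0.0585, 0.0175 and 0.0310 in YAPS127A, and 0.109, 0.0578 and 0.117 in YAP2SA cells. The YAP2SA libraries were above all Control and YAPS127A,S94A libraries, and 1 of them was below the highest YAPS127A library. The mean was 0.0944 ± 0.0319 in YAP2SA and 0.0204 ± 0.0171 in Control cells, a ratio of 4.63, and an exact two-sided permutation test over the libraries gave p = 0.1. That is the smallest p that 3 libraries against 3 can give. Without the library labelled Control replicate 3 the ratio was 3.12. In a fit without the filter, the difference was 0.10 on the log2(FPKM + 1) scale, with an adjusted p of 0.00987 from limma. These levels are far under 1 FPKM, and how many reads stood behind them is not known.

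CDH2 encodes N-cadherin, which joins neural, mesenchymal and many melanoma cells, and it lies on chromosome 18 (GRCh37, 25512843 to 25757910, minus strand). Its FPKM was 43.6, 40.1 and 41.1 in Control, 43.5, 41.8 and 42.4 in YAPS127A,S94A, 41.4, 40.8 and 36.9 in YAPS127A, and 32.2, 35.6 and 35.5 in YAP2SA cells. The YAP2SA libraries were below all others, and both other constructs overlapped with Control. CDH2 fell in YAP2SA cells by 0.27 (SE 0.06, adjusted p = 0.00437 from limma) against Control, by 0.30 against YAPS127A,S94A (adjusted p = 0.00211) and by 0.20 against YAPS127A (adjusted p = 0.0259). The last of these was not past the threshold without YAPS127A replicate 1 (adjusted p = 0.0873), without YAPS127A replicate 2 (0.0792), without YAP2SA replicate 1 (0.101) or when those 6 libraries alone were fitted (0.0897).

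CDH2 exceeded CDH1 in all 12 libraries, by a mean of 5.38 ± 0.06 in Control, 5.42 ± 0.02 in YAPS127A,S94A, 5.30 ± 0.08 in YAPS127A and 5.02 ± 0.11 in YAP2SA cells on the log2(FPKM + 1) scale. This gap was narrower in every YAP2SA library than in any other library. The change from Control to YAP2SA cells was -0.37, and -0.96 with 0.1 in place of 1 added to the FPKM.

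VIM encodes vimentin, the type III intermediate filament protein of mesenchymal cells, and was the most abundant of the 10 genes, above 98.7% of the tested loci by mean FPKM. It lies on chromosome 10 (GRCh37, 17270240 to 17279592, plus strand), where exons of the antisense gene VIM-AS1 overlap it. Whether the authors counted by strand is not stated, so reads of the pair cannot be told apart. VIM was at 790, 722 and 720 FPKM in Control, 742, 747 and 739 in YAPS127A,S94A, 792, 755 and 738 in YAPS127A, and 594, 619 and 563 in YAP2SA cells. All 3 YAP2SA libraries were below the other 9, which overlapped. VIM fell in YAP2SA cells by 0.33 (SE 0.06, adjusted p = 1.0e-03 from limma) against Control, by 0.36 (adjusted p = 7.7e-04) against YAPS127A and by 0.33 (adjusted p = 9.9e-04) against YAPS127A,S94A.

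FN1 encodes fibronectin, a matrix glycoprotein that integrins bind. Its FPKM was 10.7, 10.5 and 22.9 in Control, 11.4, 7.68 and 12.3 in YAPS127A,S94A, 12.7, 12 and 19.1 in YAPS127A, and 6.81, 6.99 and 7.42 in YAP2SA cells. The YAP2SA libraries were the lowest 3 of the 12 and lay close together, while Control replicate 3 and YAPS127A replicate 3 stood above the rest of their groups. FN1 fell by 0.87 (SE 0.28, adjusted p = 0.0293 from limma) in YAP2SA cells against Control. Without the library labelled Control replicate 3 the difference was -0.52 (adjusted p = 0.082), without any 1 of the YAP2SA libraries the adjusted p was between 0.06 and 0.0734, and in a fit of only those 2 groups it was 0.0535. Against YAPS127A it fell by 0.92 (adjusted p = 0.0285), which became 0.0969 without YAPS127A replicate 3 and between 0.0631 and 0.0744 without any 1 of the YAP2SA libraries. Against YAPS127A,S94A the difference was -0.48 (95% interval -1.11 to 0.14, adjusted p = 0.194). The 4 groups share 1 estimate of the spread of a gene, which includes the library labelled Control replicate 3. Without that library, the interval against YAPS127A,S94A was -0.91 to -0.06 (adjusted p = 0.065 from limma). Against YAPS127A the adjusted p was then 0.00461.

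**Figure D2:**
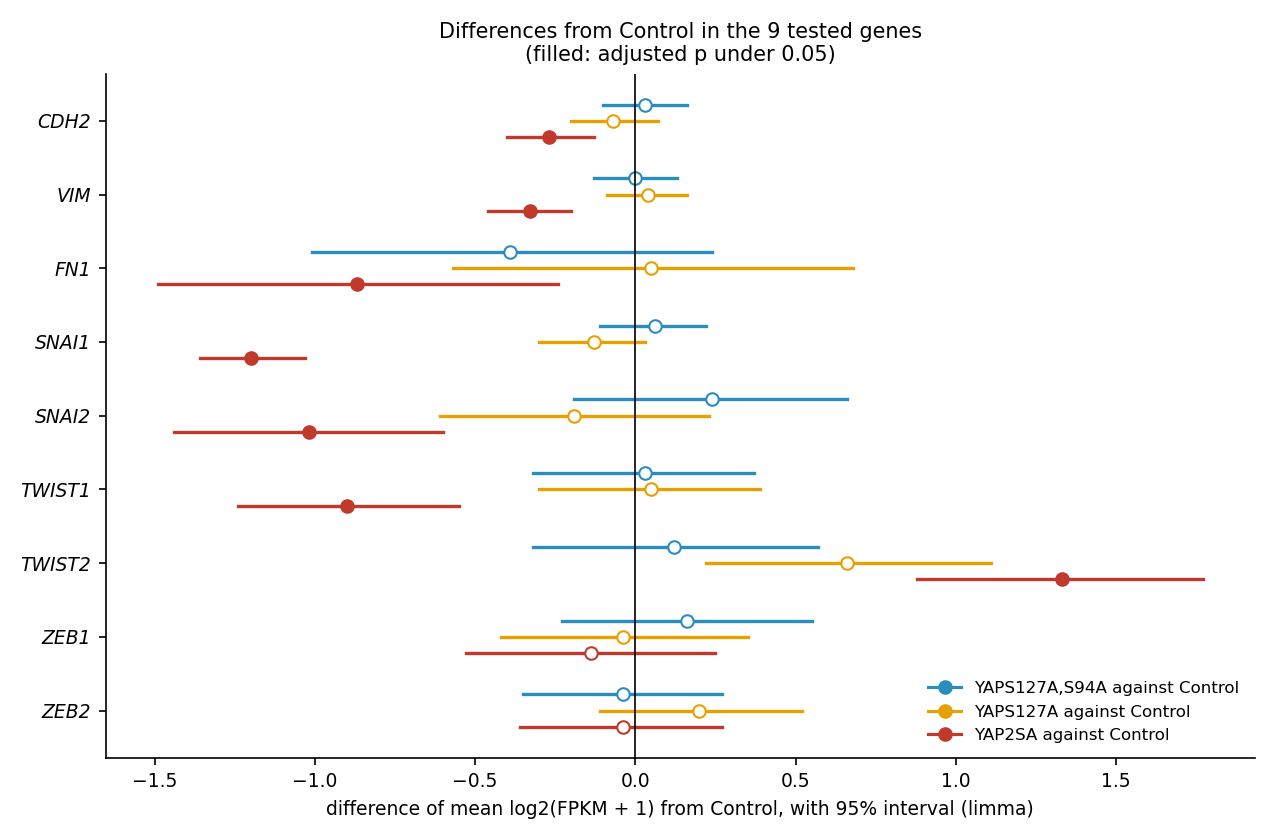
Difference of mean log2(FPKM + 1) from Control (horizontal axis, with the 95% interval from limma) for the 9 tested genes in YAPS127A,S94A, YAPS127A and YAP2SA cells. Filled points have an adjusted p under 0.05. In YAP2SA cells 7 genes are filled, TWIST2 to the right at 1.33 and 6 genes to the left, and no point of the other constructs is filled. The 3 comparisons share the Control libraries.

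SNAI1 encodes the zinc finger repressor Snail and lies on chromosome 20 (GRCh37, 48599517 to 48605423, plus strand). It was at 16, 14.2 and 13.4 FPKM in Control, 15.3, 15.9 and 14.3 in YAPS127A,S94A, 12.9, 12.5 and 14.1 in YAPS127A, and 5.88, 5.49 and 5.97 in YAP2SA cells. No YAP2SA library came near the lowest of the 9 others, which was at 12.5. SNAI1 fell in YAP2SA cells by 1.20 (SE 0.07, adjusted p = 3.7e-07 from limma) against Control, by 1.06 (adjusted p = 1.8e-06) against YAPS127A and by 1.25 (adjusted p = 2.3e-07) against YAPS127A,S94A.

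SNAI2 encodes Slug, a related repressor that is also used in the neural crest and in melanocytes. It was the lowest of the 9 tested genes, with 2.37, 1.59 and 2.57 FPKM in Control, 3.5, 1.84 and 2.99 in YAPS127A,S94A, 2.15, 1.42 and 1.78 in YAPS127A, and 0.703, 0.628 and 0.356 in YAP2SA cells. It was above 1 FPKM in the 9 libraries of the other groups and below it in all 3 YAP2SA libraries. It thus entered the test only through groups in which it was higher. SNAI2 fell by 1.02 (SE 0.19, adjusted p = 0.00138 from limma) in YAP2SA cells against Control. It fell by 0.83 (adjusted p = 0.00683) against YAPS127A and by 1.25 (adjusted p = 3.2e-04) against YAPS127A,S94A. Since 1 is added to the FPKM, the change of this low gene is understated on the log2 scale, and the ratio of its means was 3.88.

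The TWIST factors are basic helix-loop-helix proteins that share most of their domain structure, and they moved in opposite directions. TWIST1, on the minus strand of chromosome 7 (GRCh37, 19060614 to 19157259), was at 28.3, 34.8 and 25.3 FPKM in Control, 28.7, 30.3 and 30.3 in YAPS127A,S94A, 24, 31.4 and 36.3 in YAPS127A, and 12.9, 16.7 and 16.3 in YAP2SA cells. All YAP2SA libraries were below the lowest of the others. TWIST1 fell by 0.90 (SE 0.15, adjusted p = 8.3e-04 from limma) against Control, by 0.94 (adjusted p = 9.1e-04) against YAPS127A and by 0.92 (adjusted p = 6.6e-04) against YAPS127A,S94A.

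TWIST2, on the plus strand of chromosome 2 (GRCh37, 239756673 to 239832230), was at 6.77, 8.65 and 5.25 FPKM in Control, 6.18, 8.9 and 7.5 in YAPS127A,S94A, 12.9, 10 and 11.1 in YAPS127A, and 20.2, 22.4 and 14 in YAP2SA cells. The 3 YAP2SA libraries were above all others, and the 3 YAPS127A libraries were above all 6 of Control and YAPS127A,S94A. Of all loci, 21.3% did not overlap between YAPS127A and Control, and 29.4% between YAPS127A and YAPS127A,S94A. TWIST2 rose by 1.33 (SE 0.20, adjusted p = 3.3e-04 from limma) in YAP2SA cells against Control and by 1.21 (adjusted p = 6.2e-04) against YAPS127A,S94A. Against YAPS127A it rose by 0.67 (adjusted p = 0.0265), which was not past the threshold without YAPS127A replicate 2 (0.0853), YAPS127A replicate 3 (0.0634), YAP2SA replicate 1 (0.0836) or YAP2SA replicate 2 (0.098). TWIST2 minus TWIST1 was -1.96 ± 0.10 in Control, -1.86 ± 0.20 in YAPS127A,S94A, -1.34 ± 0.43 in YAPS127A and 0.27 ± 0.42 in YAP2SA cells on the log2(FPKM + 1) scale. TWIST2 made up between 17.2% and 19.9% of the summed FPKM of the pair in Control and between 46.1% and 60.9% in YAP2SA libraries. The sum itself, formed after the values had been seen, was 36.3 ± 6.53 FPKM in Control, 37.3 ± 2.18 in YAPS127A,S94A, 41.9 ± 5.24 in YAPS127A and 34.2 ± 4.48 in YAP2SA cells, and its libraries overlapped between YAP2SA and Control.

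TEAD proteins bind the letters GGAATG. RefSeq promoter windows of the 250 bases before a transcript start (GRCh38.p14, a later build than the hg19 of the deposited table) were at hand for CDH2, VIM, FN1, TWIST2, ZEB1 and ZEB2, in 13 windows, and not for CDH1, SNAI1, SNAI2 and TWIST1. The letters GGAATG, on either strand, were in 0 of the 13 windows and in 11.9% of all 35116 windows of that length. Of the 13 windows, 7 are of ZEB1, so they do not stand for 13 genes. Bases beyond these windows, such as enhancers, were not searched, so the absence does not show that a gene lacks TEAD sites. The window of TWIST2, the 1 gene that rose, is at chr2:238847835-238848084 on the plus strand, and it has no capitals because neither GGAATG nor the E-box described below is in it. Of its bases, 68.4% are G or C.
TWIST2: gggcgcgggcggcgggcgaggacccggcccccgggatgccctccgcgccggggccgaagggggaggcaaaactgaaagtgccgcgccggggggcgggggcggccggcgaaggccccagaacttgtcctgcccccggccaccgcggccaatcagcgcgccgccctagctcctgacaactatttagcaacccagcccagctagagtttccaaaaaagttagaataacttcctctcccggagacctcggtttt

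The ZEB genes encode zinc finger and homeodomain repressors, and neither passed the test described above in any of the 6 comparisons between groups. ZEB1, on the plus strand of chromosome 10 (GRCh37, 31607424 to 31818742), was at 6.62, 10.3 and 8.43 FPKM in Control, 8.62, 9.64 and 10 in YAPS127A,S94A, 6.35, 9.88 and 8.37 in YAPS127A, and 6.13, 8.2 and 8.21 in YAP2SA cells. Its difference between YAP2SA and Control was -0.14 (95% interval -0.53 to 0.25, adjusted p = 0.552 from limma). Between YAP2SA and YAPS127A,S94A it was -0.30 (95% interval -0.69 to 0.09, adjusted p = 0.192). The libraries of these 2 groups did not overlap in ZEB1, nor in 56.1% of all loci. Exons of ZEB1-AS1 overlap ZEB1 on the other strand, with the limit given for VIM. The same limit holds for CDH1, CDH2, SNAI2 and TWIST1, where exons of annotated genes without a symbol overlap on the other strand.

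The ZEB2 locus, on the minus strand of chromosome 2 (GRCh37, 145121931 to 145278624 for ZEB2), was at 5.74, 7.28 and 6.36 FPKM in Control, 6.13, 5.48 and 7.17 in YAPS127A,S94A, 8.27, 8.29 and 6.28 in YAPS127A, and 5.1, 6.68 and 7.02 in YAP2SA cells. Its difference between YAP2SA and Control was -0.04 (95% interval -0.36 to 0.27, adjusted p = 0.841 from limma). Each construct overlapped with Control for both ZEB genes, and the intervals leave room for changes of up to 0.53 downward in ZEB1 and 0.36 downward in ZEB2.

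SNAI and ZEB proteins recognise the E-box CAGGTG, which reads CACCTG on the other strand. It was found in 2 of the 13 promoter windows, both of ZEB1, and in 17.5% of all windows. The first of them, at chr10:31318167-31318416 on the plus strand (GRCh38.p14, RefSeq), is printed with the E-box in capitals as an example of the letters searched, and the match does not show that a factor binds there.
ZEB1: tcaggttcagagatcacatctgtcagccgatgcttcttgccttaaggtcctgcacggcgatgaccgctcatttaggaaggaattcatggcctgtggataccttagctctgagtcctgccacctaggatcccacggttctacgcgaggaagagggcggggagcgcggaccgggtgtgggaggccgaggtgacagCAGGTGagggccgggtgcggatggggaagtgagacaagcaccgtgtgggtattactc

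MicroRNAs of the miR-200 family bind ZEB1 and ZEB2 transcripts and keep both low in epithelial cells. Their mature sequences (RefSeq, GRCh38.p14), with the seed at bases 2 to 8 in capitals, fall into a pair of seed groups that differ in 1 base. The first 3 share the seed AAUACUG and the last 2 the seed AACACUG.
hsa-miR-200b-3p: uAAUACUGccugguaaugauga
hsa-miR-200c-3p: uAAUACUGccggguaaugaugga
hsa-miR-429: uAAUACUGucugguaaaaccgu
hsa-miR-200a-3p: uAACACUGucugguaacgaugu
hsa-miR-141-3p: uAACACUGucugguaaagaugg

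The hairpin loci of these 5 microRNAs, MIR200B, MIR200C, MIR429, MIR200A and MIR141, were listed at 0 in all 12 libraries. Libraries of mRNA do not measure mature microRNAs, so this bears on the hairpin loci alone. Of 8 loci of microRNAs known to target ZEB or SNAI transcripts, 1 passed the filter, MIR34A, and 0 were called in any comparison with Control. Its mean FPKM was 1.95 ± 0.115 in Control and 2.15 ± 0.224 in YAP2SA cells.

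The balance of ZEB2 and SNAI2 against ZEB1 and TWIST1 was taken in each library as the mean log2(FPKM + 1) of the first pair minus that of the second. It was below 0 in all 12 libraries, with ZEB1 and TWIST1 the higher pair. It was -1.65, -2.12 and -1.62 in Control, -1.58, -2.09 and -1.70 in YAPS127A,S94A, -1.33, -1.99 and -2.06 in YAPS127A, and -1.63, -1.85 and -1.94 in YAP2SA cells. The 4 groups overlapped, with means of -1.79 ± 0.28, -1.79 ± 0.27, -1.79 ± 0.40 and -1.81 ± 0.16. In YAP2SA cells both SNAI2 and TWIST1 were lower, 1 in each pair, and SNAI2 minus TWIST1 was -3.38 ± 0.33 against -3.26 ± 0.47 in Control. ZEB2 minus ZEB1 was -0.23 ± 0.03 in YAP2SA, -0.33 ± 0.14 in Control, -0.53 ± 0.16 in YAPS127A,S94A and -0.09 ± 0.37 in YAPS127A cells. The scale mattered for this balance. With 0.1 in place of 1 added to the FPKM, the balance was lower in YAP2SA than in Control by a mean difference of -0.38, since that scale gives the change of the low gene SNAI2 more room.

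**Figure D3:**
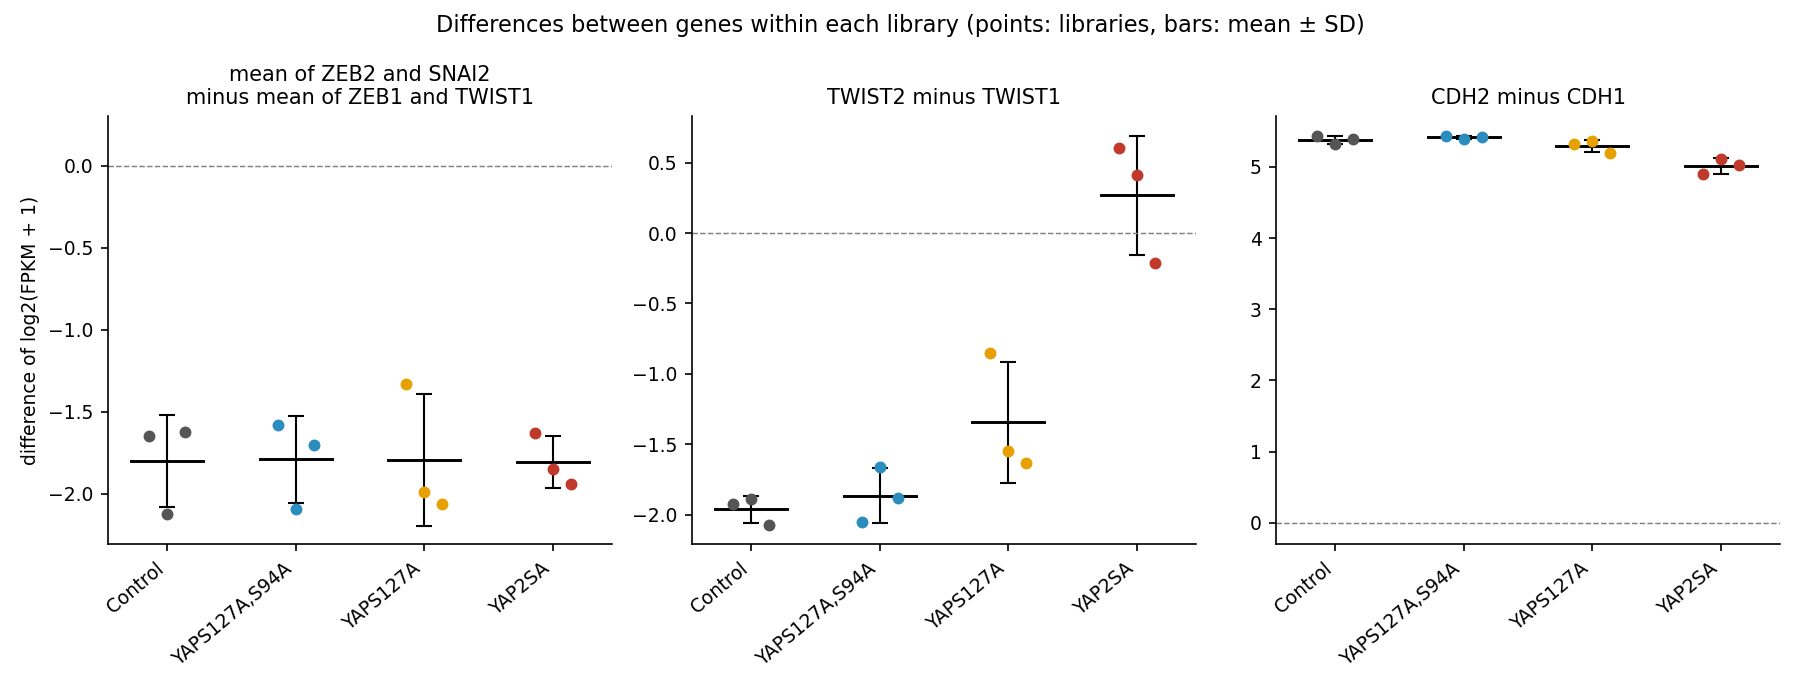
Differences of log2(FPKM + 1) between genes within each library (vertical axes) for Control, YAPS127A,S94A, YAPS127A and YAP2SA cells, as points with the group mean and SD; the dashed line is at 0. The balance of the 4 factors overlaps in all groups, with means between -1.81 and -1.79, TWIST2 minus TWIST1 goes from a mean of -1.96 in Control to 0.27 in YAP2SA, and CDH2 minus CDH1 is 4.90 or more.

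The constructs were then compared with each other. None of the 9 tested genes passed in YAPS127A against Control, where 6.31% of all loci did. An unadjusted p under 0.05 from limma was found in 1 of the 9, TWIST2, and in 2953 of all 15055 loci. TWIST2 was higher there by 0.66 (95% interval 0.22 to 1.11, adjusted p = 0.0893 from limma), and by 0.50 (0.04 to 0.97, adjusted p = 0.244) without the library labelled Control replicate 3. All 3 YAPS127A libraries were above the Control libraries in TWIST2, and 21.3% of all loci did not overlap between these groups. None passed in YAPS127A,S94A against Control, where 0.179% of all loci did. In that comparison 0 of the 9 genes and 661 of the 15055 loci had an unadjusted p under 0.05. The differences of the 9 genes there lay between -0.39 (FN1, 95% interval -1.01 to 0.24) and 0.24 (SNAI2, -0.19 to 0.66). Without the library labelled Control replicate 3, FN1 was at -0.04 (-0.51 to 0.44) and SNAI2 at 0.33 (-0.15 to 0.81), and 0 of the 9 passed. Both comparisons use the same Control libraries.

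Between YAP2SA and YAPS127A, which share S127A and differ in S381A, 7 of the 9 passed, 1 higher and 6 lower, beside 32.8% of all loci. Without YAP2SA replicate 1 the count was 4, beside 3929 of 14792 loci, with CDH2, FN1 and TWIST2 no longer past the threshold. Between YAP2SA and YAPS127A,S94A, 6 of the 9 passed, with 43.5% of all loci, and FN1, ZEB1 and ZEB2 did not. Between YAPS127A and YAPS127A,S94A, the pair that tests the TEAD-binding residue, 0 of the 9 passed, beside 10.7% of all loci. Of the 9, 3 had an unadjusted p under 0.05, beside 3761 of the 15055 loci. The 3 genes were SNAI1 at -0.19 (adjusted p = 0.14 from limma), SNAI2 at -0.42 (adjusted p = 0.198) and TWIST2 at 0.54 (adjusted p = 0.122). By the titles, no construct joined S381A to S94A, so the part of S94A in what YAP2SA cells showed was not tested.

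The genes around the 10 were read from lists of cadherins, junction proteins, matrix genes, cofactors and markers. Each count below is of the list's genes that passed the filter, as a description beside the 22.9% of loci called higher and 19.5% called lower in YAP2SA against Control. In YAPS127A,S94A against Control, 0 genes of any of these lists were called, beside 0.179% of all loci. Without the library labelled Control replicate 3, the counts in YAP2SA against Control became 8 higher for mesenchymal genes, 4 higher and 5 lower for other EMT transcription factors and 5 higher for corepressors, and those of the other lists stayed as given. Counts in YAPS127A against Control stand beside 4.56% of loci called higher and 1.75% called lower, or 3.42% and 1.06% without that library. Several genes share an entry with others, so their values belong to joint loci: CTNND1 with TMX2, PDGFRB with CSF1R, ITGB3 with C17orf57, CD68 with MPDU1, and CDH11, CTNNB1, ITGB5, LYZ and MIR34A with transcripts of other names. JUP and KRT19 share 1 entry, which is counted once among the catenins and once among the epithelial genes. Adjusted p values are from limma over all loci.

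Of 21 other cadherins, 7 were tested, and in YAP2SA cells 5 rose and 2 fell, with a median difference of 1.10 where all loci had 0.01. CDH6, a cadherin of kidney and neural crest, was at 0.113, 0.0973 and 0.216 FPKM in Control, 1.58, 1.56 and 1.68 in YAPS127A, and 8.43, 7.96 and 9.35 in YAP2SA cells. It rose by 3.07 in YAP2SA (adjusted p = 9.3e-10) and by 1.19 in YAPS127A cells (adjusted p = 1.4e-05). CDH4 (1.87) and CDH11 (1.64) also rose. CDH19, the cadherin of Schwann cell precursors and melanocytes, fell by 3.12 (adjusted p = 4.5e-08), from 8.26 to 0.0599 FPKM. CDH4, CDH6 and CDH11 reached 1 FPKM in YAP2SA and YAPS127A libraries alone, so they could enter the test only through groups in which they were high. CDH19 was under 1 FPKM in the YAP2SA libraries and entered through the other groups, in which it was high. In YAPS127A cells 3 of the 7 rose and 1 fell, and 2 and 0 did so without Control replicate 3, where CDH19 had an adjusted p of 0.13 in place of 0.0382.

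The catenins and their relatives were read as partners of the cadherins. Of 7 tested, 3 rose and 3 fell in YAP2SA cells, with a median of -0.28, among them PKP4 (0.64, adjusted p = 1.1e-04) and ARVCF (0.46) upward and CTNND1, p120-catenin (-0.39), and CTNNB1, β-catenin (-0.37, adjusted p = 5.3e-04) downward. CTNNB1 was at 118 FPKM in YAP2SA and 153 in Control cells. ARVCF reached 1 FPKM in YAP2SA and YAPS127A libraries alone. In YAPS127A cells 1 rose and 0 fell, and without Control replicate 3 the count was 0.

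Epithelial genes rose although CDH1 stayed near 0. Of 34, 14 were tested, and in YAP2SA cells 11 rose and 1 fell, with a median of 1.34. KRT8, a keratin of simple epithelia, was at 9.58, 10.2 and 11.4 FPKM in Control, 8.71, 9.82 and 9.1 in YAPS127A,S94A, 44.6, 43.3 and 37.7 in YAPS127A, and 142, 163 and 137 in YAP2SA cells. It rose by 3.70 in YAP2SA (adjusted p = 5.1e-10) and by 1.91 in YAPS127A cells (adjusted p = 9.3e-07). PKP2 of desmosomes (3.73), AP1M2 of polarised sorting (3.25) and the transport protein MAL2 (3.21) rose as well. MAL2 reached 1 FPKM in YAP2SA and YAPS127A libraries alone. PKP2 reached it in those and in 1 more library, the one labelled Control replicate 3 (1.23 FPKM). The other 20 did not pass the filter. Among them, and named after their values were seen, EPCAM, ESRP1, GRHL2 and OVOL1 were at or under 0.149 FPKM in every library. Others of the 20 were higher. CLDN1 (at most 1.22 FPKM), CDS1 (1.08) and SPINT1 (1.02) reached 1 FPKM in YAP2SA libraries alone, and GRHL1 in 1 Control library. In YAPS127A cells 7 of the 14 rose and 0 fell, and without Control replicate 3 these were 6 and 0.

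Mesenchymal genes went both ways. Of 17 tested, 9 rose and 5 fell in YAP2SA cells, with a median of 0.35. The largest differences were in COL1A1, a chain of type I collagen, which rose by 4.70 (adjusted p = 8.9e-10) from 0.322 to 33.4 FPKM, and in TNC, the matrix protein tenascin C, which fell by 4.66 (adjusted p = 2.7e-10) from 192 to 6.61 FPKM. TAGLN of contractile cells (2.25) and the growth factor receptor PDGFRB (1.65) rose. COL1A1 and COL6A3 reached 1 FPKM in YAP2SA and YAPS127A libraries alone. In YAPS127A cells 4 rose and 1 fell, and without Control replicate 3 these were 4 and 0.

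Other transcription factors of EMT were divided in the same way, with 5 of 14 tested higher and 6 lower in YAP2SA cells and a median of 0.23. PRRX1, a homeobox factor of mesenchyme, was at 22.5, 25.7 and 30.8 FPKM in Control and 0.497, 0.473 and 0.569 in YAP2SA cells, and fell by 4.16 (adjusted p = 3.9e-09). SOX9 (2.94), ZNF703 (1.89) and ETS1 (1.85) rose. SOX9 reached 1 FPKM in YAP2SA and YAPS127A libraries alone. PRRX1 reached it in no YAP2SA library and entered the test through the other groups, in which it was high. In YAPS127A cells 3 of the 14 rose and 1 fell, and without Control replicate 3 these were 2 and 2.

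The proteins that SNAI and ZEB factors use to repress, and those that set their stability, were also read. Of 14 corepressor genes, all of which were tested, 7 rose and 1 fell in YAP2SA cells, with a median of 0.18. Without YAP2SA replicate 3 the 7 were 4, beside 2762 of 14771 loci called higher. The LIM proteins AJUBA, WTIP and LIMD1, which bind SNAI factors and also LATS kinases, rose by 2.52, 2.78 and 0.91, and RCOR1 by 0.43. AJUBA was at 8.61, 7.99 and 7.61 FPKM in Control, 21.5, 20.9 and 21 in YAPS127A, and 48.7, 52.2 and 51.8 in YAP2SA cells. Of 17 genes of SNAI, TWIST and ZEB turnover, 2 rose and 3 fell, with a median of -0.07. LOXL2, which stabilises Snail, rose by 1.66 (adjusted p = 3.0e-08), and its relative LOXL3 fell by 1.64 (adjusted p = 1.2e-06). GSK3B, the kinase that marks Snail for degradation, fell by 1.02 and PRKD1 by 0.60. In YAPS127A cells 3 of the corepressor genes and 1 of the turnover genes rose and 0 fell, while 1 corepressor gene was called lower without Control replicate 3.

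Receptors of fibronectin and relatives of vimentin moved with or apart from FN1 and VIM. Of 8 fibronectin receptor genes tested, 2 rose and 4 fell in YAP2SA cells, with a median of -0.28. ITGB3, integrin β3, fell by 5.21 (adjusted p = 1.7e-09) from 93.4 to 1.55 FPKM, and ITGA4 (-0.74) and ITGB5 (-0.60) also fell, while the heparan sulfate proteoglycan SDC2 rose by 0.78. In YAPS127A cells 1 of the 8 fell, ITGB3 (adjusted p = 0.0305), and 0 did without Control replicate 3 (adjusted p = 0.103). Of 9 other type III and IV intermediate filament genes, 3 were tested and all 3 fell, NES by 3.43, SYNM by 1.56 and NEFL by 1.18. NES, the nestin of neural progenitors, was at 24.6 FPKM in Control and 1.35 in YAP2SA cells, and 1 of the 3 fell in YAPS127A cells.

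**Figure D4:**
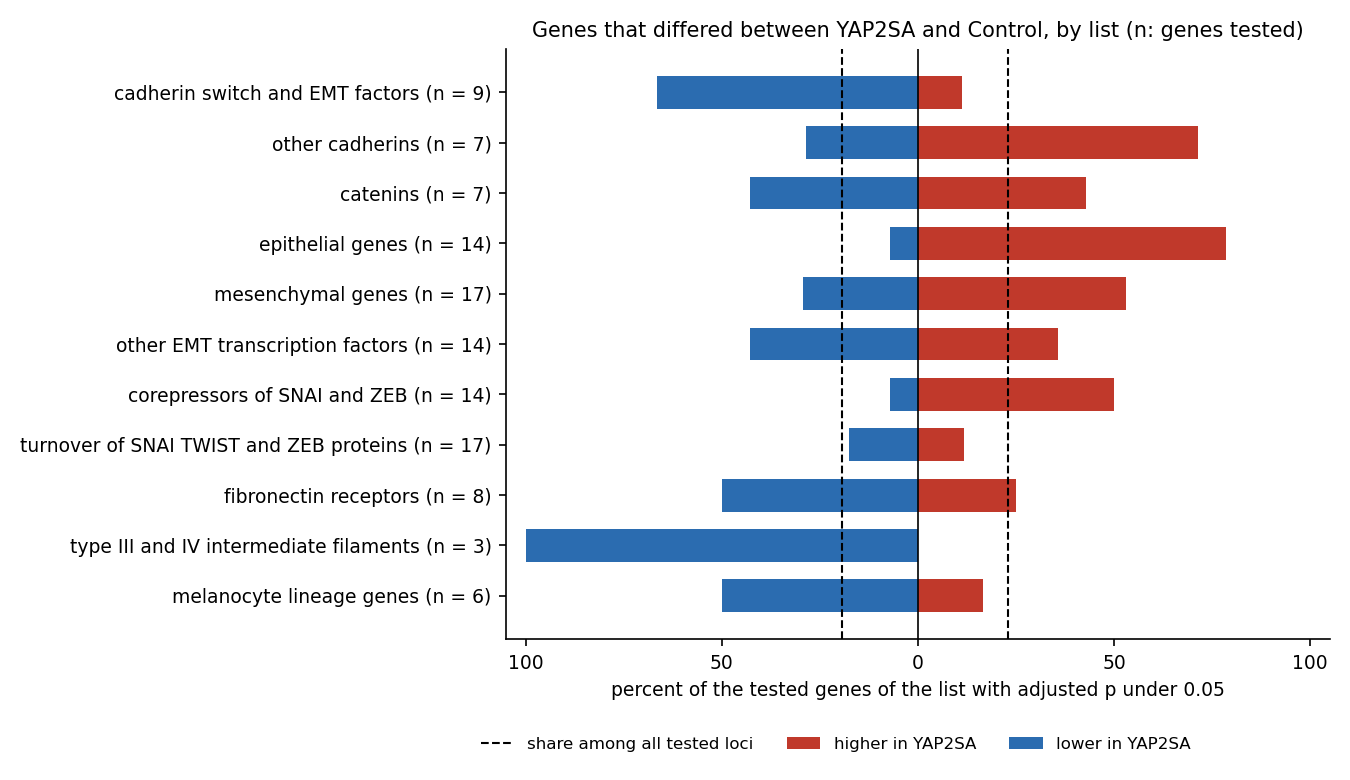
Percent of the tested genes of each list with an adjusted p under 0.05 in YAP2SA against Control (horizontal axis, lower to the left and higher to the right, n genes tested per list). Dashed lines mark the 19.5% of all loci called lower and the 22.9% called higher. Of the cadherin switch genes and EMT factors, 6 of 9 are to the left and 1 to the right, and of the epithelial genes 11 of 14 are to the right.

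Markers of cell identity moved in the same comparison. Of 12 melanocyte lineage genes, 6 were tested, and in YAP2SA cells 1 rose and 3 fell, with a median of -2.34. SOX10 fell by 5.22, S100B fell by 4.73 and S100A1 fell by 4.71, while MITF rose by 1.96. Their summed FPKM was between 374 and 463 in Control and between 52.7 and 60.3 in YAP2SA libraries. The pigment genes PMEL, MLANA, TYR, TYRP1 and DCT were under 1 FPKM in every library, at most 0.949 (TYRP1), so the defining markers of pigmented melanocytes were at low levels in these A375 libraries. Of 6 endothelial genes 1 was tested, TIE1, which rose by 1.65 and reached 1 FPKM in YAP2SA and YAPS127A libraries alone. The sum of the list was between 0.808 and 1.48 FPKM in Control and between 2.62 and 4.54 in YAP2SA libraries, with PECAM1 and VWF at or under 0.133 FPKM. Of 7 haematopoietic genes 2 were tested, of which LYZ fell by 2.27 and CD68 rose by 0.47, and PTPRC and CD3E were at or under 0.0644 FPKM. The sum of the epithelial list was between 222 and 258 FPKM in Control and between 1380 and 1548 in YAP2SA libraries. The part of these shifts in the values of the 10 genes was not tested.

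The loci whose pattern was most like that of each tested gene were named by Pearson's r of log2(FPKM + 1) over the 12 libraries. These 12 points share the 4 groups, so r mostly follows the differences between groups, and it is given as a description. For SNAI1 they were SLC26A10 (0.995), MSC (0.993) and FZD8 (0.993). For SNAI2 they were FOS (0.990), FAM115C (0.978) and LOC554249 (0.974). TWIST1 was nearest to BICD1 (0.974), SIDT2 (0.968) and PC (0.960), and TWIST2 to AKIP1 (0.965), TRIM14 (0.964) and ADORA2B (0.963). CDH2 had RPS6KA3 (0.964), IFT88 (0.958) and LMO4 (0.955). VIM had KIAA1644 (0.972), HMG20B (0.970) and C6orf127 (0.967). FN1 had SLC29A2 (0.941), PPAPDC3 (0.917) and TOM1L2 (0.913), and ZEB1 had MLLT11 (0.929), ZNF189 (0.923) and ST13P4 (0.920). ZEB2 had no locus above 0.794.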

How the data were processed

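The authors isolated RNA with TRIzol, made cDNA with TruSeq chemistry and aligned the reads to hg19 with UCSC known genes (per the labels and the submitters' processing notes, Bowtie2 2.0.0, TopHat2 2.0.4 and Cufflinks 2.0.2). They deposited 1 table of log2 values, log2(FPKM + 1), for 31588 entries in 12 libraries. Removal of 3 identical entries left 31585 loci. FPKM was obtained by reversing the log2. Whole reads could not be recovered: at most 33.3% of 49 to 74 low loci shared a ratio between libraries to within 1%.

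The deposited log2 values were tested with limma 3.58.1 (R 4.3.3) with an intensity trend, 1 mean per group over 12 libraries, and Benjamini-Hochberg adjustment over 15055 loci. In data simulated for YAP2SA against Control, 174 of 200 loci changed by 1 (log2) were recovered and 14 others were called, over 15055 loci. The genes, the 13 other lists and the rules were chosen with earlier results of these data known. Named genes were the 10, up to 4 called genes per list with the largest difference in YAP2SA against Control, and the 3 most similar loci. Gene positions are from GENCODE on GRCh37. Alternatives covered the constant added to FPKM, the filter, scaling between libraries, intensity trend, libraries fitted, replicate block and each library left out. Cufflinks' own test needs reads and was not run.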

Additional observations from a re-analysis of the deposited data

How the results depend on the processing

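Each of the 10 genes has 1 entry, so summing entries of a symbol changed no value. Of 1134 values of a gene in a comparison under an alternative, 1093 kept their direction and side of the threshold, 23 turned direction, 17 fell short of the threshold and 1 passed it. Many of the 1134 could not turn direction. Summed entries, the filter, the trend, the block and a left-out library of a group not compared leave the difference as it was. In YAP2SA against Control, 182 of 189 kept both, and leaving out 1 library gave 6 to 7 genes called. Leaving out 1 library gave 4 to 7 genes in YAP2SA against YAPS127A. The count of 4 was without YAP2SA replicate 1, where 3929 of 14792 loci were called. The other counts did not move by over 1.5 times. With log2(FPKM + 0.1), the YAP2SA minus Control difference of the balance of ZEB2 and SNAI2 against ZEB1 and TWIST1 was -0.38 in place of -0.01, and that of CDH2 minus CDH1 was -0.96 in place of -0.37.

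The differences that turned direction had not passed the test. VIM in YAPS127A,S94A against Control was 0.10 after quantile normalization, and -0.02 to 0.04 with 1 library left out. The other ranges with 1 library left out were -0.14 to 0.40 for FN1 in YAPS127A against Control, -0.08 to 0.20 for TWIST1 in YAPS127A against Control, -0.07 to 0.15 for TWIST1 and -0.03 to 0.28 for TWIST2 in YAPS127A,S94A against Control, -0.11 to 0.18 for TWIST1 in YAPS127A against YAPS127A,S94A, -0.18 to 0.12 for ZEB1 in YAPS127A against Control, -0.26 to 0.03 for ZEB1 in YAP2SA against YAPS127A, and, for ZEB2, -0.12 to 0.08 in YAP2SA against Control, -0.13 to 0.04 in YAPS127A,S94A against Control and -0.08 to 0.12 in YAP2SA against YAPS127A,S94A. The cause was not tested. Without the filter on low values, 17 epithelial genes and 9 other cadherins were called higher in YAP2SA cells in place of 11 and 5. More genes of each list were then tested, at levels too low for the filter. Of all loci, 4086 of 23437 were called higher, in place of 3443 of 15055. The 1 corepressor gene called lower was not called without the filter, without the intensity trend, with the replicate block, or without several single libraries.

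Same-numbered libraries of different groups are not shown to be paired: the correlations of their deviations from the group means lay between -0.149 and 0.163, with 2 of 18 over 0.1, and 5 of 12 libraries correlated best with their own number. With the replicate number as a block, the counts of called genes were 7, 0, 0, 7 and 0, as without it, in YAP2SA, YAPS127A and YAPS127A,S94A against Control, YAP2SA against YAPS127A and YAPS127A against YAPS127A,S94A. Of the 15055 loci, 6828, 1032, 24, 5287 and 1771 were called with the block in these comparisons, in that order. In YAP2SA against YAPS127A,S94A the count was 7 in place of 6, beside 6976 of the 15055 loci. The gene added was ZEB1, which then had an adjusted p of 0.0211 from limma (difference -0.30). Values under 1 FPKM (CDH1, and SNAI2 in YAP2SA cells) rest on few reads of unknown number.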
